A study of Mus musculus with 36 samples.

Results

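The genes described here make cholesterol and fatty acids, or control their making. They are 32 genes, found by symbol among the 15289 genes of the authors' table of normalized CPM (read counts relative to library size, rescaled between libraries). All 32 were present, and all 32 passed the filter on low values in each of the 8 comparisons below. By role they are 4 genes of sterol sensing, 8 of the mevalonate and isoprenoid steps, 11 of the steps from squalene to cholesterol, 1 sterol transfer gene and 8 of fatty acid synthesis, elongation and desaturation.

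Cells build cholesterol from acetyl-CoA through mevalonate, farnesyl diphosphate, squalene and lanosterol, and build fatty acids from the same acetyl-CoA. The transcription factors SREBP-1 and SREBP-2 switch these genes on when membranes of the endoplasmic reticulum run short of sterol: SCAP then carries the SREBP precursors to the Golgi for cleavage, while INSIG proteins hold SCAP back when sterol is plentiful. In the retina, photoreceptors need large amounts of membrane for their outer segments, and the neural retina makes cholesterol of its own.

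The study converted fibroblasts to photoreceptor-like cells with chemicals, and RNA sequencing values of 33 libraries in 11 groups were used. All cells came from the Nrl-GFP strain, whose reporter is driven by the Nrl promoter. Nrl encodes the factor that commits retinal precursors to the rod fate. The starting cells (MEF, n = 3) were embryonic fibroblasts of passage 2 in IMR90 medium. Treatment with 5 chemicals in photoreceptor induction medium was sampled on its way at day 5 (n = 3) and at day 8 (n = 3), and its end product, photoreceptor-like cells, at day 11 (CiPC, n = 3). The chemicals and their doses are not named in the labels, and no group received the induction medium alone, so medium and chemicals cannot be told apart. Rods carried the same reporter and are named by postnatal day: P2 and P4 with 2 libraries each, P5, P6 and P14 with 3 each, and P10 and P28 with 4 each. The P5 rods were new, and rods of the other ages were reused from an older series, although the labels name no such source for replicate 3 of P10 and of P14. They state a sort on reporter expression for all samples. Nothing says that replicates were separate cultures or animals, so the p-values measure the spread between these samples alone, and that spread may be technical.

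Depth is unknown, since the table holds no counts, and column sums ran from 719752 to 2277242. The labels were checked against defining markers. The summed CPM of 10 rod markers was 3.14 to 6.41 in MEF, day 5 and day 8 libraries, 399 to 406 in CiPC and 7949 to 8376 in P5 rods, so CiPC held rod transcripts at a level far below that of rods. Of 10 fibroblast markers, Col1a1 stood at 3894 to 5132 CPM in MEF and at 28.1 to 55.2 CPM in CiPC, and Thy1 at 116 to 124 and 1.97 to 2.02. Not all fell so far: Lum and Pdgfra differed from MEF to CiPC by only -0.59 and 0.06 in log2(CPM + 1). Nrl itself was 0.17 to 0.271 CPM in MEF, 30.4 to 30.9 in CiPC and 864 to 939 in P5 rods, Crx 0.186 to 0.579, 86.8 to 97.8 and 1621 to 1712, and Sag 1.39 to 2.39, 88.8 to 91.8 and 637 to 668.

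The promoters are shown because so many of these genes moved together in culture. RefSeq (GRCm38.p6) gave a promoter window of 300 bases, from 250 before to 50 after the start, for 25 of the 32 genes. Each window was searched on both strands for the core of a sterol regulatory element (TCACNCCAC, bound by SREBP), the CCAAT box bound by NF-Y, the GC box bound by Sp1 (GGGCGG) and an E-box (CACGTG). The motifs were chosen after values of these data were known. A CCAAT box was found in 20 of the 25 genes (80.0%), against 41.1% of all 27025 genes with a window, and a GC box also in 20, against 38.2%. The E-box was in 5 of the 25 (20.0%), against 8.09%, and the strict sterol element core in 1, Hmgcs1, against 1.44%. The 27025 genes include many outside the 15289 with values here, whereas the 25 all passed the filter, so these shares are of unlike sets. Shares among expressed genes alone were not counted. Matches describe letters only, and no match says only that these letters are not in the window. The 150 bases before the start are given, 5′ to 3′ on the gene's own strand, for Hmgcs1 (chr13:119690201-119690350, plus strand), Mvk (chr5:114444119-114444268, plus strand), Fasn (chr11:120824548-120824697, minus strand) and Acly (chr11:100528001-100528150, minus strand). Hmgcs1 and Mvk, of the mevalonate steps, rose from MEF to CiPC, whereas Fasn and Acly, of fatty acid synthesis, did not pass the test. All 4 stretches lie outside annotated exons. Capitals mark matches to the motifs: in Hmgcs1 the sterol element core, 1 CCAAT box and 2 GC boxes, in Mvk 4 CCAAT boxes and 1 GC box, in Fasn 3 CCAAT boxes, of which 2 on opposite strands share bases, and in Acly 4 GC boxes.
Hmgcs1: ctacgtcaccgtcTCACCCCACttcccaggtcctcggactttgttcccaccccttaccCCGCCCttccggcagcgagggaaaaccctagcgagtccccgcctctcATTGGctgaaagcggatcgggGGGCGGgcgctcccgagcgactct
Mvk: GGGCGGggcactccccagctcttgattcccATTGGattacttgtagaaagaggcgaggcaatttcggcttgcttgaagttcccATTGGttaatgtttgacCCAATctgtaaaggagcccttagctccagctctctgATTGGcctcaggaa
Fasn: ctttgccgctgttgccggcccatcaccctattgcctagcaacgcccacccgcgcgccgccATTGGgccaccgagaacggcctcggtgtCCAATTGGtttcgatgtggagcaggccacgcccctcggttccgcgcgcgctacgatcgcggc
Acly: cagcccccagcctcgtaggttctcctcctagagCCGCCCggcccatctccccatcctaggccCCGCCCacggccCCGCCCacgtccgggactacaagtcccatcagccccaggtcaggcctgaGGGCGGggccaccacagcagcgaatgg

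Across the culture, 23 of the 32 genes rose from MEF to CiPC and none fell. A gene is said to rise or fall where limma's adjusted p was under 0.05 and the difference in log2(CPM + 1) was at least 1, which is 2-fold on that scale and understates the change of genes at a few CPM. The same rule called 16.5% of all 13719 genes tested higher and 17.2% lower. The median difference of the 32 genes was 1.41, and that of all genes -0.05. Without the fold minimum 27 of the 32 were higher and 1 lower (37.6% and 42% of all genes). Among the sterol enzymes (mevalonate and squalene steps together), 16 of 19 rose, with a median of 1.49. Among the fatty acid genes 4 of 8 rose, with a median of 0.94. The genes that did not pass were Srebf1, Scap, Ggps1, Hsd17b7, Ebp, Acly, Acaca, Fasn and Scd1.

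The rise came in steps of different size. By day 5, 13 genes had risen over MEF and 0 had fallen, where 14.7% and 13.7% of all genes did so. The median difference of the 32 was 0.88, against 0.01 over all genes, and without the fold minimum 26 were higher and 3 lower (40.7% and 40.3% of all genes). From day 5 to day 8 only Scd1 rose and 0 fell (background 3.61% and 3.01%), but at any fold 19 of the 32 were higher and 2 lower at an adjusted p under 0.05, where 25.6% and 23.9% of all genes were. From day 8 to CiPC 3 genes rose and 2 fell (15.2% and 16.6% of all genes), and without the fold minimum 17 were higher and 7 lower (35.8% and 39.3%). Of the 4 culture groups, CiPC had the highest mean of 20 genes, day 8 of 9, day 5 of 2 and MEF of 1. MEF had the lowest mean of 26. The highest and lowest groups were not counted over all genes, so whether these numbers are unusual is not known. Day 5 and CiPC were compared with the same 3 MEF libraries, and the successive steps share the groups between them, so these counts do not repeat each other independently.

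**Figure D1:**
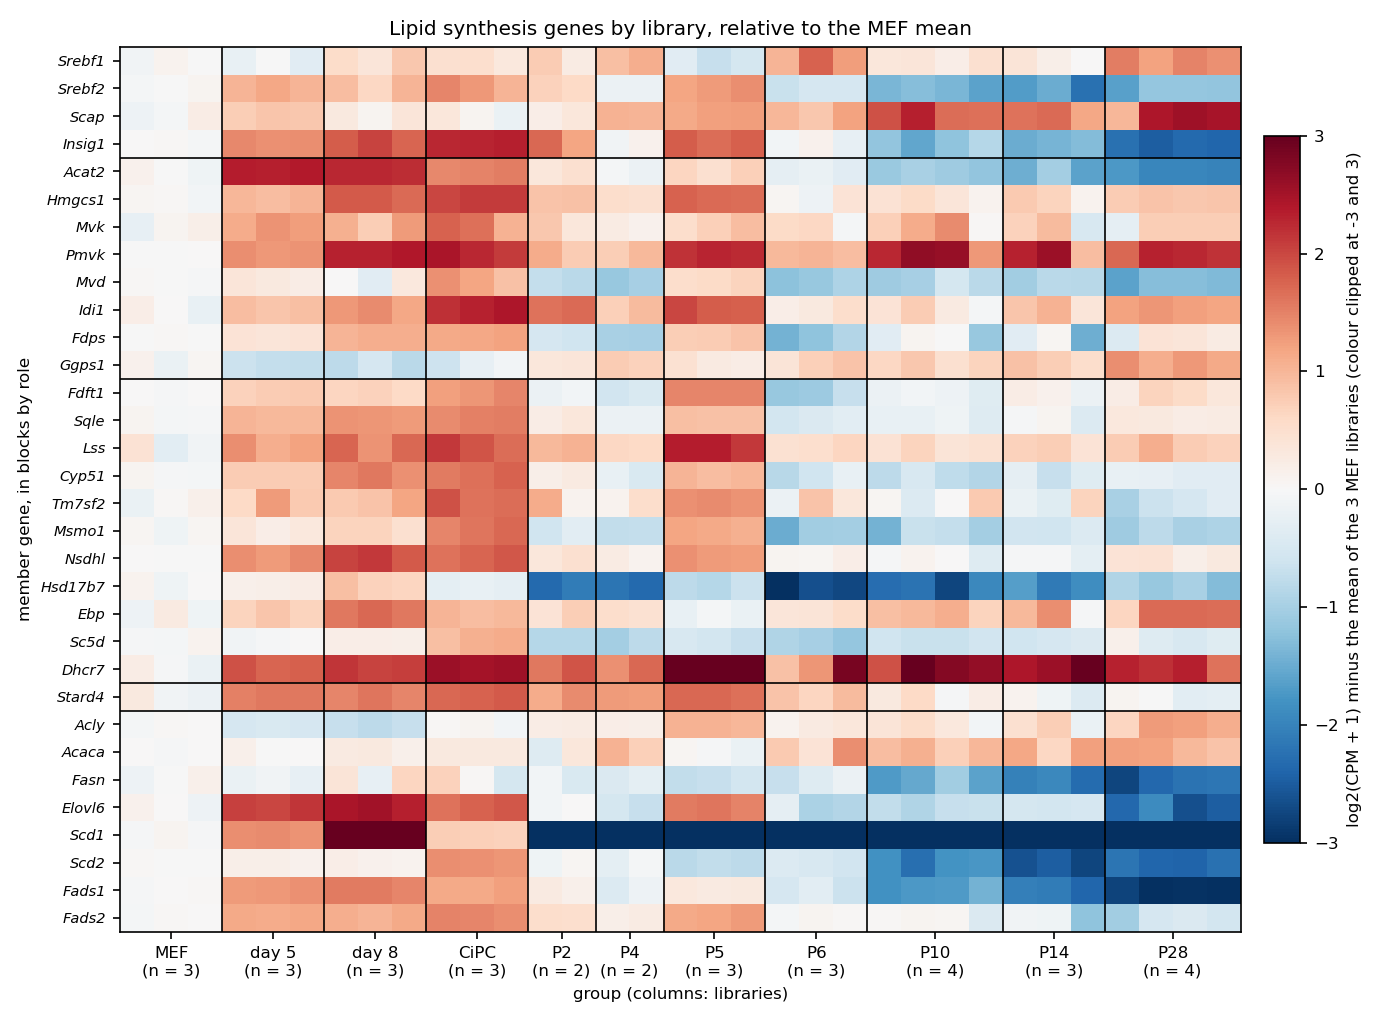
Each row is a gene, in blocks by role, and each column a library, and colour gives log2(CPM + 1) minus the mean of the 3 MEF libraries, clipped at -3 and 3. Most sterol genes are red from day 5 to CiPC and again in P5 rods, while in rods of the other ages several are pale or blue, and Scd1 is deep red at day 8 and deep blue in all rods.

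Among the control genes, Insig1 encodes the protein that retains SCAP in the endoplasmic reticulum and is itself a target of SREBP. It lies on chromosome 5 (GRCm38, 28071363 to 28078662, plus strand). Its level was 28.7, 29.3 and 27.2 CPM in MEF, 78.3, 74.5 and 76.6 at day 5, 103, 119 and 98.0 at day 8, and 139, 143 and 148 in CiPC. The 4 groups did not overlap, and each later group was higher than the one before. From MEF to CiPC the difference was 2.30 ± 0.06 (SE, n = 3 and 3, adjusted p = 2.37e-09), and 1.40 of it was present at day 5. Srebf2, the gene of SREBP-2, the main activator of sterol genes, was 93.6, 97.5 and 104 CPM in MEF, 199, 219.9 and 199.5 at day 5, 189, 151 and 199 at day 8 and 275, 243 and 199 in CiPC. All treated libraries lay above MEF, and those of day 5, day 8 and CiPC overlapped. The difference was 1.06 ± 0.05 at day 5 and 1.26 ± 0.11 in CiPC.

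The other 2 control genes did not pass from MEF to CiPC. Srebf1, whose products mainly drive fatty acid genes, was 57.8, 67.9 and 62.6 CPM in MEF and 87.9, 88.6 and 77.7 in CiPC, a difference of 0.43 ± 0.08 that missed the fold. Day 5 libraries (53.8, 62.0 and 49.5) overlapped those of MEF. Scap was 59.3, 63.8 and 77.0 CPM in MEF and 112, 118 and 117 at day 5, a difference of 0.79 ± 0.08 below the fold. In CiPC its libraries, at 83.9, 70.6 and 57.8, overlapped MEF again.

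In the mevalonate block, 7 of 8 genes rose from MEF to CiPC and 0 fell. Hmgcs1, which condenses acetoacetyl-CoA with acetyl-CoA, was 84.1, 82.1 and 76.2 CPM in MEF, 161, 155 and 165 at day 5, 294, 289 and 266 at day 8 and 327, 348 and 349 in CiPC. No 2 of these groups overlapped, and the difference from MEF to CiPC was 2.06 ± 0.06. Idi1, the isomerase that makes dimethylallyl diphosphate, was 29.7, 26.0 and 22.1 CPM in MEF, 49.6, 46.5 and 49.1 at day 5, 64.6, 70.3 and 58.9 at day 8 and 122, 132 and 144 in CiPC. Its last step, from day 8 to CiPC, was 1.02 ± 0.09 (adjusted p = 7.82e-06), and it lost the call without day 8 replicate 3 or CiPC replicate 3.

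Other kinases and enzymes of the block kept different times. Pmvk, phosphomevalonate kinase, was 7.81, 7.88 and 8.01 CPM in MEF, 22.2, 20.8 and 21.8 at day 5, 43.1, 43.0 and 45.9 at day 8 and 47.3, 41.7 and 36.8 in CiPC. MEF, day 5 and day 8 were separate, and CiPC overlapped day 8. Acat2, the cytosolic thiolase that opens the pathway, was 31.0, 28.1 and 26.0 CPM in MEF, 149, 146 and 151 at day 5, 139, 138 and 134 at day 8 and 78.7, 81.1 and 83.6 in CiPC. It was highest at day 5, with a difference from MEF of 2.35 ± 0.06, the largest of the 32 genes at that step, and its later difference from day 8 to CiPC was -0.75 ± 0.06, below the fold. Mvd, which decarboxylates mevalonate diphosphate, did the opposite: it was 14.9 to 15.5 CPM in MEF, 18.1 to 19.8 at day 5, 11.8 to 19.0 at day 8 and 28.9 to 41.1 in CiPC. Only the last step passed, at 1.15 ± 0.18, and not without day 8 replicate 2.

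Mvk, mevalonate kinase, was 12.6, 16.1 and 17.3 CPM in MEF and 54.7, 49.9 and 32.5 in CiPC, a difference of 1.49 ± 0.19. Fdps, which makes farnesyl diphosphate, was 69.1 to 71.9 CPM in MEF and 154 to 164 in CiPC, a difference of 1.16 ± 0.05. The exception was Ggps1, which makes geranylgeranyl diphosphate for protein prenylation and lies off the route to sterol. It was 60.1, 48.2 and 57.8 CPM in MEF, 34.8, 33.4 and 32.8 at day 5 and 35.7, 46.1 and 52.4 in CiPC. The difference was -0.70 ± 0.08 at day 5, below the fold, and -0.31 ± 0.14 in CiPC (adjusted p = 0.0646).

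**Figure D2:**
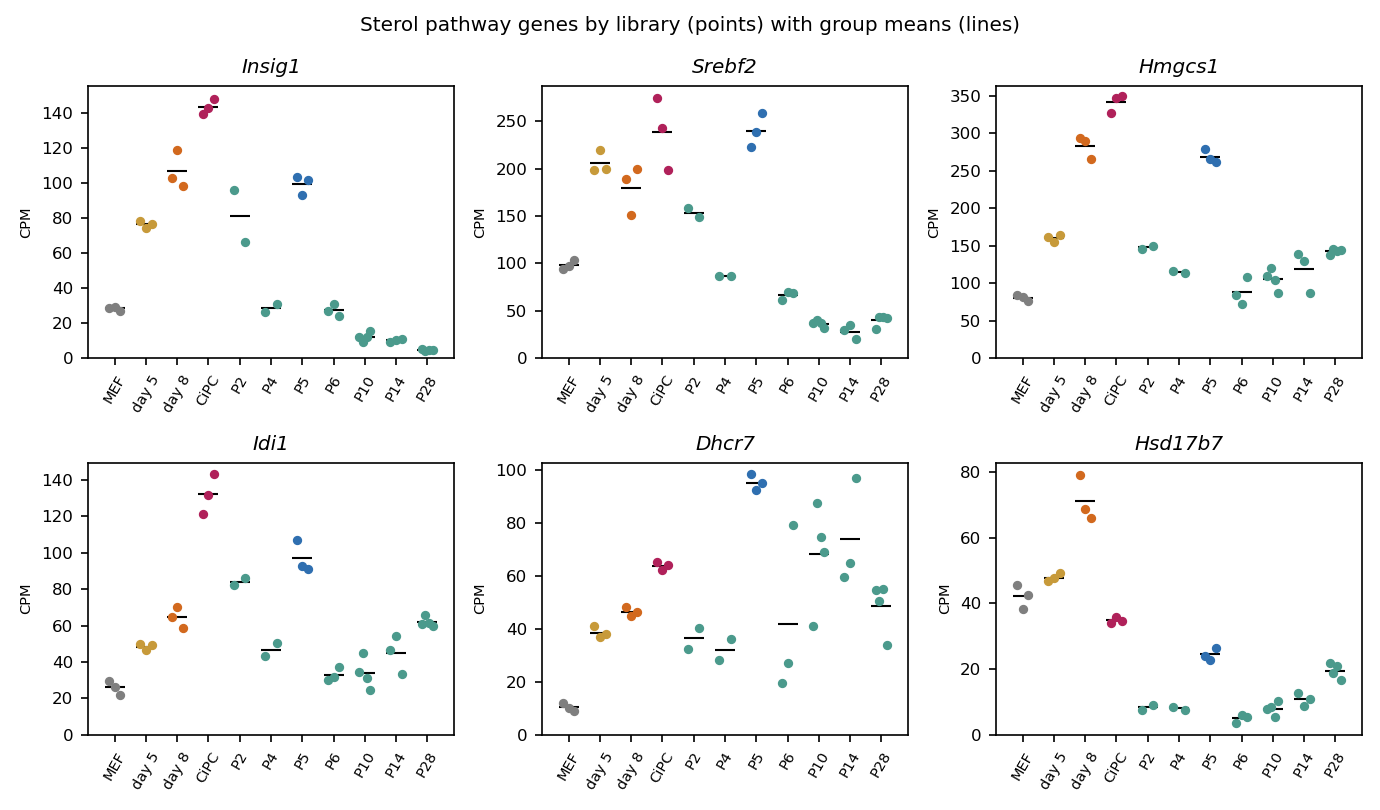
CPM (y axis, from 0) is plotted for 6 sterol pathway genes in each group (x axis), with points for libraries and lines for group means. Insig1, Hmgcs1, Idi1 and Dhcr7 are lowest in MEF among the culture groups and highest in CiPC, P5 rods stand above P4 and P6 rods in Insig1, Srebf2, Hmgcs1 and Idi1, and Hsd17b7 is highest at day 8.

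From squalene to cholesterol, 9 of 11 genes rose from MEF to CiPC and 0 fell. Dhcr7 encodes the last reductase of the Kandutsch-Russell branch. Its level was 12, 9.98 and 8.81 CPM in MEF, 40.9, 36.7 and 37.9 at day 5, 48.3, 44.8 and 46.3 at day 8 and 65.0, 62.0 and 64.1 in CiPC. The groups were fully separate, and the difference of 2.53 ± 0.11 (adjusted p = 4.73e-08) was the largest of the 32 genes from MEF to CiPC. Lss, which cyclizes epoxysqualene to lanosterol, was 42.9, 24.9 and 29.1 CPM in MEF and 139.9, 118 and 102 in CiPC. Its spread in MEF was wide, but no library of CiPC came near it, and the difference was 1.89 ± 0.19.

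Sqle, squalene epoxidase and a rate-limiting enzyme, went from 51.2 to 57.1 CPM in MEF to 106 to 109.8 at day 5, 132 to 138 at day 8 and 145 to 157 in CiPC, with a difference of 1.49 ± 0.06 in the end. Cyp51, the lanosterol demethylase, went from 63.5 to 69.6 to 111 to 112, 172 to 198 and 195 to 228, with a difference of 1.66 ± 0.07. In both the first step, from MEF to day 5, missed the fold, at 0.99 ± 0.05 for Sqle and 0.75 ± 0.05 for Cyp51. Fdft1, squalene synthase, Tm7sf2, a sterol C14 reductase, Msmo1, the C4 methyl oxidase, and Nsdhl, which acts with it, ended at differences of 1.33, 1.74, 1.60 and 1.75. Msmo1 stood apart in time: its levels were 50.6 to 57.8 CPM in MEF, 63.7 to 71.2 at day 5, 76.7 to 88.3 at day 8 and 153 to 185 in CiPC, and the last step alone was 1.00 ± 0.09, just under the fold. Sc5d, the sterol C5 desaturase, did likewise, with 45.9 to 50.1 CPM at day 5, 56.1 to 56.9 at day 8 and 93.3 to 109 in CiPC against 47.1 to 53.1 in MEF, a difference of 1.03 ± 0.08 that did not pass without MEF replicate 2 or CiPC replicate 3.

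Hsd17b7 and Ebp were highest at day 8. Hsd17b7, the 3-keto sterol reductase, was 45.6, 38.2 and 42.5 CPM in MEF, 79.1, 68.6 and 66.1 at day 8 and 34.1, 35.8 and 34.6 in CiPC. It fell from day 8 to CiPC by 1.01 on the log2 scale, with an SE of 0.08, and this call was lost under each of the 3 other scalings tried. Its CiPC libraries lay below all 3 of MEF, at a difference of -0.26 ± 0.08. Ebp, the sterol isomerase, was 12.7, 17.3 and 13.0 CPM in MEF, 44.9, 49.4 and 44.6 at day 8 and 29.9, 27.7 and 28.8 in CiPC, so it ended at 0.97 ± 0.12, just below the fold. Stard4, which moves cholesterol between membranes in the cytosol, was 20.8, 15.5 and 14.6 CPM in MEF, 49.7, 51.8 and 51.9 at day 5 and 57.5, 59.9 and 62.9 in CiPC. It had risen by 1.55 ± 0.11 at day 5 and stood at 1.78 ± 0.12 in CiPC.

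**Figure D3:**
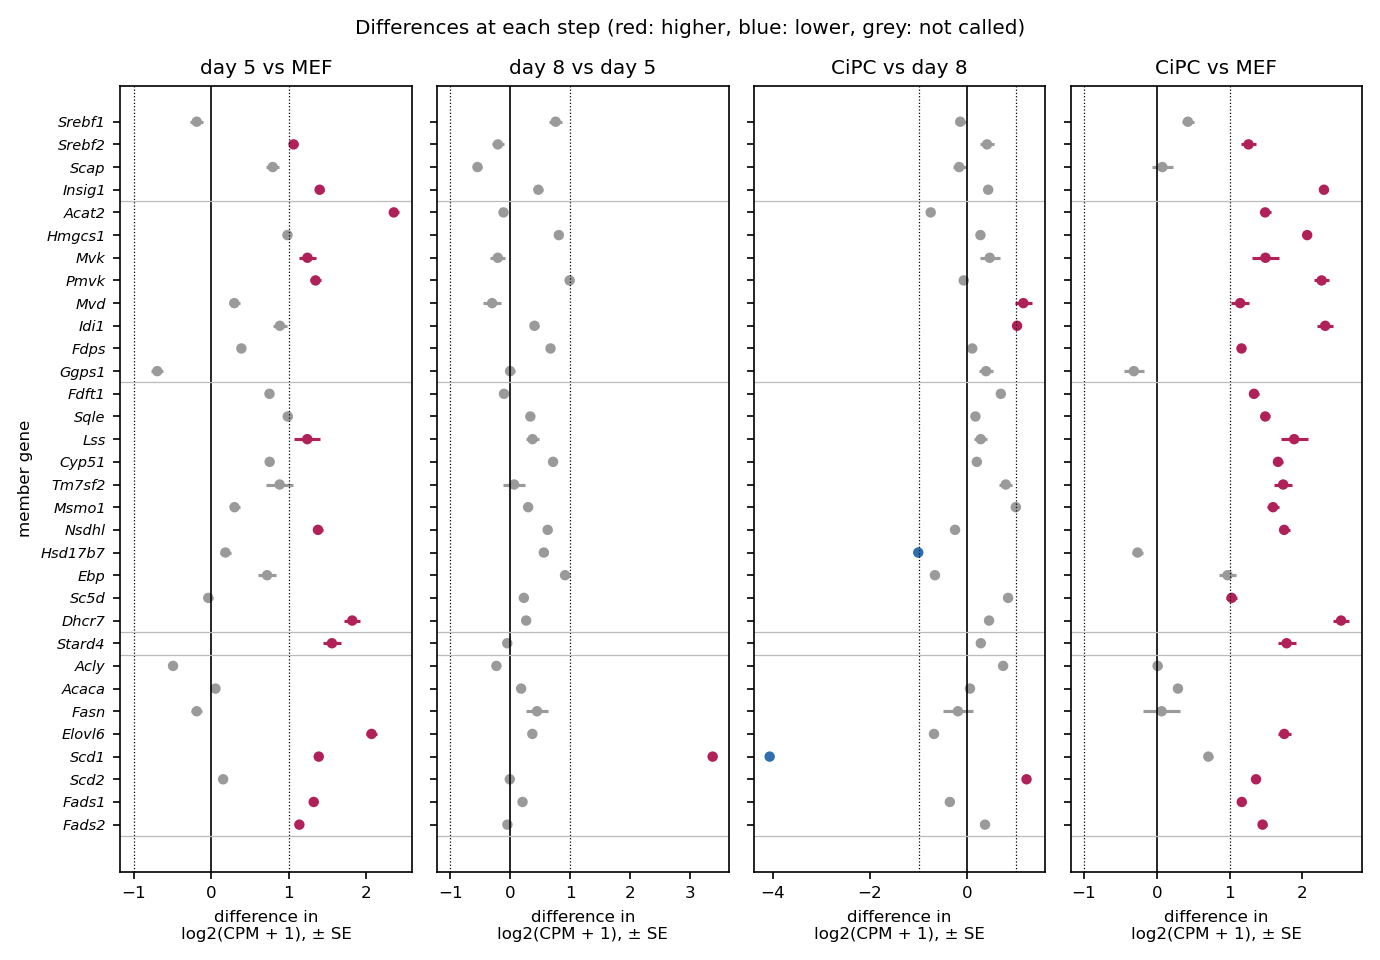
Each panel gives the difference in log2(CPM + 1) of the 32 genes (points, with lines for ± 1 SE) at a step of the culture, and dotted lines mark 2-fold. In day 5 against MEF 13 genes are red (higher), in day 8 against day 5 only Scd1, in CiPC against day 8 3 are red and 2 blue (lower), and in CiPC against MEF 23 are red; the horizontal scales differ between panels.

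Among the fatty acid genes, the 3 that make palmitate did not pass from MEF to CiPC. Acly, which cleaves citrate to cytosolic acetyl-CoA, was 259.8, 278 and 275 CPM in MEF, 189.5, 196 and 191 at day 5, 168, 156 and 167 at day 8 and 278, 284 and 258 in CiPC. It lay below MEF in all 6 intermediate libraries, at -0.49 ± 0.04 by day 5, below the fold, and CiPC overlapped MEF again. Acaca, acetyl-CoA carboxylase, was 82.0 to 84.9 CPM in MEF and 102 to 103 in CiPC, a difference of 0.29 ± 0.05. Fasn, fatty acid synthase, was 284, 314 and 348 CPM in MEF and 509, 324 and 217 in CiPC. Its 3 CiPC libraries spread on both sides of MEF, and the difference was 0.07 ± 0.25 (adjusted p = 0.817).

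Of the 5 genes that lengthen and desaturate fatty acids, 4 rose from MEF to CiPC, and Scd1 did not pass, at 0.71 ± 0.06. Elovl6, which lengthens palmitate to stearate, was 26.9, 24.8 and 22.1 CPM in MEF, 104, 101 and 112 at day 5, 139, 145 and 128 at day 8 and 77.8, 86.4 and 91.3 in CiPC. It was highest at day 8, and CiPC stayed apart from MEF, at 1.75 ± 0.09. Fads1 and Fads2, the delta-5 and delta-6 desaturases of polyunsaturated fatty acids, are neighbours on chromosome 19 (GRCm38, 10182888 to 10196877 on the plus strand and 10062765 to 10101746 on the minus strand). Fads1 was 83.9, 86.8 and 87.7 CPM in MEF, 212, 214 and 224 at day 5, 255, 257 and 238 at day 8 and 191, 191 and 202 in CiPC. Fads2 was 35.7, 37.6 and 37.5, then 82.8, 80.5 and 83.6, then 80.3, 76.4 and 82.3, then 106, 104 and 98.3. Both had risen by day 5, by 1.32 ± 0.04 and 1.14 ± 0.05, and both were higher than MEF in CiPC, by 1.17 ± 0.05 and 1.45 ± 0.06.

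Scd1 and Scd2, close relatives that both put the first double bond into stearate and palmitate, took separate courses. They too are neighbours on chromosome 19 (44394455 to 44407879, minus strand, and 44293674 to 44306864, plus strand). Scd1 was 49.8, 53.3 and 49.0 CPM in MEF, 134, 136 and 132 at day 5, 1423, 1448 and 1353 at day 8 and 84.5, 83.9 and 81.9 in CiPC. It rose by 3.38 ± 0.04 from day 5 to day 8 and fell by 4.06 on the log2 scale (SE 0.05) from day 8 to CiPC, in all 3 libraries each time. Scd2 was 499, 482 and 484 CPM in MEF, 547, 548 and 534 at day 5, 560.3, 534 and 527 at day 8 and 1283, 1258 and 1232 in CiPC. It kept close to its MEF level until day 8 and rose by 1.22 ± 0.05 in the last step. As a share of the summed CPM of both genes, Scd1 made up 9.07% to 9.96% in MEF, 19.6% to 19.9% at day 5, 71.8% to 73.0% at day 8 and 6.18% to 6.25% in CiPC. How reads shared by these related genes were divided is not given.

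Adipocyte markers were highest at day 8, as Scd1 was, but the courses were not the same. In CiPC their sum lay below that of MEF, while Scd1 lay above its MEF level. The summed CPM of 10 of them was 49.9 to 57.4 in MEF, 1560 to 1584 at day 5, 5570 to 6037 at day 8 and 37.8 to 40.2 in CiPC. All 10 were at 1 CPM or more at day 8, and 5 were below it in MEF and in CiPC. Adipoq, an adipokine of fat cells named here after its values were seen, was 0 in all 3 MEF libraries, 61.7 to 64.3 CPM at day 8 and 0, 0 and 0.090 in CiPC. At day 8, 8 of the 10 markers were higher than at day 5 and 0 lower (3.61% and 3.01% of all genes were). From day 8 to CiPC all 10 markers fell (16.6% of all genes did). Their part in the course of Scd1 was not tested, and in bulk RNA fewer cells of a type and less RNA per cell cannot be told apart. Other marker sums moved with the sterol genes: 10 cycling markers summed to 493 to 503 CPM in MEF, 851 to 859 at day 5, 1045 to 1106 at day 8 and 1531 to 1677 in CiPC, and 8 Müller glia markers to 187 to 191, 556 to 568, 1007 to 1064 and 2738 to 2841. Fibroblast markers summed to 19483 to 21460 CPM in MEF, 47812 to 49837 at day 5, 52654 to 56217 at day 8 and 614 to 668 in CiPC, and 9 macrophage markers to 472 to 486, 55.5 to 61.6, 134 to 147 and 201 to 224. The part of cells with these markers in the rise of the sterol genes was not tested.

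**Figure D4:**
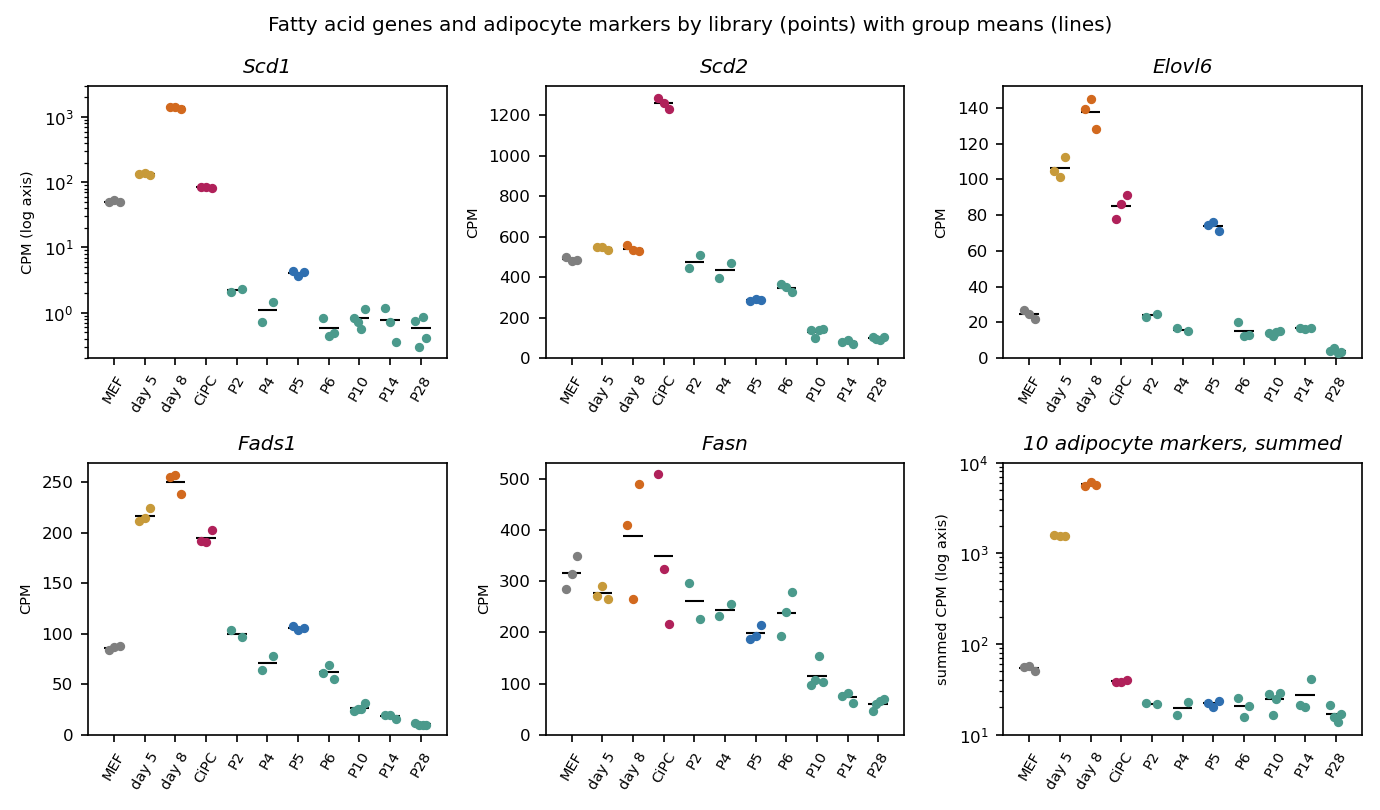
Panels give CPM of 5 fatty acid genes and the summed CPM of 10 adipocyte markers (y axes; log axes for Scd1 and for the markers, from 0 elsewhere) by group (x axis), with points for libraries and lines for group means. Scd1 and the adipocyte markers share a peak at day 8, Scd2 is highest in CiPC at 1232 to 1283 CPM, and Scd2, Fads1 and Fasn are lower in rods from P10 on than in P2 rods.

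Other genes of the pathway show which of its branches took part. Lbr, whose product also has sterol reductase activity, rose by 1.36 from MEF to CiPC. Por, the electron donor of Cyp51 and Sqle, fell by 1.39 on the log2 scale. Of 10 other genes that process or degrade SREBP and its partners, 0 rose and 0 fell between MEF and CiPC (16.5% and 17.2% of all genes did). At any fold 3 were higher and 5 lower (37.6% and 42% of all genes).

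Further fatty acid genes were 21 in the table. Of 19 tested at day 5, 7 rose and 2 fell, where 14.7% and 13.7% of all genes did. Of 21 at day 8 against day 5, 10 rose and 0 fell (3.61% and 3.01% of all genes), and of 21 in CiPC against day 8, 4 rose and 7 fell (15.2% and 16.6%). The day 8 group included Elovl3, an elongase of brown fat, with a mean of 60.7 CPM at day 8 and under 0.2 in the other culture groups, Thrsp, a lipogenic nuclear protein, with 83.5 against 2.33 at day 5 and 0.586 in CiPC, and Acsl1, an acyl-CoA synthetase, with 557 against 41.8 and 26.4. Acss2, which makes acetyl-CoA from acetate, was 4.7, 4.08 and 3.61 CPM in MEF and 40.2, 41.4 and 40.8 in CiPC, a rise of 3.03 already reached by day 5, at 3.04. Between MEF and CiPC 5 of 16 tested rose and 0 fell (16.5% and 17.2% of all genes did). Among those that rose were Acsl3, by 3.16, and Elovl5, an elongase of polyunsaturated fatty acids, by 2.29. Of the triglyceride genes, 4 of 7 tested rose from day 5 to day 8 and 4 of 7 fell from day 8 to CiPC. Dgat2, which adds the last acyl chain, had means of 17.4, 239 and 3.73 CPM at day 5, day 8 and in CiPC.

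Genes of export and uptake were mixed. Of 8 genes of LXR, the receptor of oxysterols, and of cholesterol efflux, 1 rose and 1 fell from MEF to CiPC, where 16.5% and 17.2% of all genes did. Abca1, a cholesterol exporter, was 78.1 to 87.6 CPM in MEF, 319 to 339 at day 5, 262 to 304 at day 8 and 51.3 to 58.9 in CiPC, rising by 1.99 by day 5 and falling by 2.32 on the log2 scale from day 8 to CiPC. Of the uptake, storage and turnover genes, 4 of 13 tested rose from MEF to CiPC and 5 fell, beside the same shares. Cyp7b1, an oxysterol hydroxylase, and Cyp46a1, the cholesterol 24-hydroxylase of neurons, rose by 2.91 and 2.90, and Ch25h, which makes 25-hydroxycholesterol, fell by 2.71 on the log2 scale. The scaling to columns of equal sum raised the count of risen genes in the SREBP processing list from 0 to 3.

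Between CiPC and P5 rods 6 of the 32 genes differed. Of these, 4 were higher in CiPC (Ebp, Sc5d, Scd1 and Scd2) and 2 lower (Scap and Acly), where 24.8% of all 13546 genes tested were higher and 18.5% lower. The median difference was 0.44 for the 32 genes and -0.03 for all. Markers of other cells also differed, with sums in CiPC and P5 rods of 1531 to 1677 and 71.8 to 75.4 CPM for cycling markers, 2738 to 2841 and 244 to 267 for Müller glia, 614 to 668 and 28.3 to 32.4 for fibroblasts, and 201 to 224 and 8.54 to 10.6 for macrophages. Their part in the differences was not tested. Insig1 was 139, 143 and 148 CPM in CiPC and 103, 93.3 and 102 in P5 rods, a difference of 0.53 ± 0.06, and Srebf2 was 275, 243 and 199 against 223, 239 and 259, a difference of -0.02 ± 0.11 (adjusted p = 0.871). A small difference is not shown to be absent: 23 of the 32 genes were higher and 5 lower in CiPC at an adjusted p under 0.05 at any fold, against 42.3% and 43.4% of all genes. Scd2 stood out, at 1283, 1258 and 1232 CPM against 279.8, 293 and 285 in P5 rods (2.13 ± 0.05), as did Scd1, at 81.9 to 84.5 against 3.63 to 4.29 (4.07 ± 0.08). Sc5d was 93.3, 104 and 109 CPM against 35.4, 33.6 and 30.0 (1.60 ± 0.08). Acly, with 278, 284 and 258 against 557, 558 and 544 CPM, and Scap, with 83.9, 70.6 and 57.8 against 147, 157 and 160.2, were lower in CiPC by 1.02 and 1.13 on the log2 scale. Without CiPC replicate 3 both missed the threshold, and 6 genes were then higher and 0 lower. CiPC replicate 3 had the lowest or highest value of the group in 27 of the 32 genes, replicate 1 in 29 and replicate 2 in 8. Similar numbers were seen elsewhere, with 28 for day 8 replicate 3 and 29 for P14 replicate 3. They were not counted over all genes, so whether they are unusual is not known.

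The comparison depended on which rods were used. Against the mean of P4 and P6 rods, 23 of the 32 genes were higher in CiPC and 0 lower, where 22% of all genes were higher and 19.8% lower, with a median of 1.62 for the 32 genes and -0.01 for all genes. P5 rods, which lie between these ages, were compared with P4 and P6 themselves to show the gap. Here 19 of the 32 genes were higher in P5 rods and 1, Srebf1, lower, where 8.22% of all 13652 genes were higher and 13.1% lower, and the medians were 1.18 and -0.09. Without the fold minimum 25 were higher and 5 lower (29.1% and 36.5%). Of the sterol enzymes, 14 of 19 were higher and 0 lower.

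Single genes show how wide the gap was. Fdft1 was 126, 126 and 126 CPM in P5 rods, 29.8 and 32.3 in P4 and 19.8, 20.4 and 27.0 in P6 (2.22 ± 0.11), and Msmo1 was 127, 123 and 116, against 32.8 and 33.2, and 19.0, 26.2 and 26.6 (2.08 ± 0.12). P5 libraries of both lay above every other rod library of any age. Insig1 was 103, 93.3 and 102 CPM in P5 rods against 24.0 to 31.1 in P4 and P6, and only P2 replicate 1, at 95.9, came within the range of P5. Elovl6 was 71.0 to 76.4 CPM in P5 rods and 12.1 to 20.2 in P4 and P6. Srebf1 went the other way, with 49.4, 38.3 and 43.3 CPM against 118 and 135, and 129, 217 and 149.7 (-1.69 ± 0.16). Of the genes outside the 32, Abca1, at 5.98 to 7.59 CPM against 128 to 138 in P4 and 185 to 231 in P6, was lower by 4.43 on the log2 scale, and Abcg1, another exporter, by 2.43. The P5 rods belong to another series than the P4 and P6 rods, and series, preparation and age cannot be told apart. Cycling markers moved with the same split, summing to 71.8 to 75.4 CPM in P5, 667 to 747 in P4 and 233 to 338 in P6. Müller glia markers summed to 244 to 267, 711 to 834 and 562 to 879 CPM, but did not all move alike. Clu was higher in P5 rods, at 2.81, Abca8a did not pass, at 0.16, and Aqp4 was too low to be tested. Rlbp1, Dkk3, Slc1a3, Glul and Kcnj10 were lower, at -3.10, -2.81, -2.08, -1.15 and -1.13. The part of other cells in the split was not tested.

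In rods, the share of these genes that fell with age was near that of all genes. From the mean of P2 and P4 to P28, 10 of the 32 genes fell and 3 rose, where 32.6% of all 13282 genes tested fell and 20.3% rose. The medians were 0.03 for the 32 genes and -0.29 for all genes. Without the fold minimum 13 were lower and 12 higher (46.9% and 34.1%). A slope on log2 age over all 6 ages of the older rods gave 10 falls and 4 rises (32.6% and 21.4% of all 13884 genes), with medians of -0.06 and -0.31, and 11 and 10 without the fold minimum (40.3% and 29.4%). These fits share most of their libraries. The deposited columns of P28 sum to far more than the others, and with all columns set to the same sum the count became 20 lower and 0 higher for P28 and 21 and 0 for the slope. That scaling shifted the median of all genes by -1.14 and -1.21, and turned the sign of 16 and 14 of the 32 genes. Markers of other cells also moved with age. Cycling markers summed to 1497 to 1556 CPM in P2, 667 to 747 in P4 and 211 to 252 in P28. Their sums in P10 and P14 were lower still, at 116 to 160 and 98.9 to 188 CPM. In P28, 7 of the 10 cycling markers were below 1 CPM. Müller glia markers summed to 814 to 845 CPM in P2 and 235 to 477 in P28. Fibroblast markers summed to 95.4 to 108 and 3.80 to 9.90 CPM at these ages. The glia markers split from P2 and P4 to P28. Abca8a, Clu and Aqp4 rose, at 3.50, 3.43 and 2.35. Slc1a3, Dkk3, Rlbp1 and Kcnj10 fell, at -3.55, -3.61, -1.62 and -1.48, and Glul did not pass, at -0.26. The part of other cells in the changes with age was not tested.

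Of the 8 fatty acid genes, 5 fell in both fits and 0 rose. Fads1 was 104 and 96.2 CPM in P2, 64.3 and 77.5 in P4, 60.7, 69.2 and 55.1 in P6, 23.8, 25.6, 25.7 and 31.5 in P10, 19.9, 19.5 and 15.8 in P14 and 11.6, 9.84, 10.1 and 9.82 in P28. Apart from P4 and P6, neighbouring ages did not overlap, and over the range of ages Fads1 fell by 3.47 on the log2 scale (SE 0.22, adjusted p = 1.09e-10). Scd2 went from 444 and 509 CPM in P2 to 395 and 471 in P4, 365, 350.0 and 327 in P6, 137, 102, 141 and 145 in P10, 79.3, 87.5 and 72.1 in P14 and 105, 92.4, 91.8 and 103 in P28. The drop lay between P6 and P10, and P28 stood slightly above P14. Its slope was -2.85 ± 0.35. Fasn fell by 2.53 on the log2 scale, from 227 to 297 CPM in P2 to 46.0 to 69.6 in P28, Elovl6 by 2.02, from 23.2 to 24.9 to 3.09 to 5.9, and Fads2 by 1.18, from 53.2 to 53.6 to 17.3 to 26.9. Elovl6 did not pass without the P28 libraries, at -0.65. Scd1 was at or under 2.31 CPM in all rods but those of P5. The slopes of Acly and Acaca, 0.85 ± 0.25 and 0.82 ± 0.25, were below the fold, and with columns of equal sum they were -0.77 and -0.79.

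Of the control genes, Insig1 fell most. It was 95.9 and 66.1 CPM in P2, 26.4 and 30.9 in P4, 26.7, 31.1 and 24.0 in P6, 12, 9.01, 11.8 and 15.3 in P10, 9.46, 10.2 and 10.9 in P14 and 5.19, 4.26, 4.8 and 4.62 in P28. Among the older rods, P2 and P28 libraries did not overlap any other age, and the slope was -3.71 ± 0.23 (adjusted p = 8.38e-11). Srebf2 fell by 2.04 on the log2 scale, from 159 and 149 CPM in P2 to 29.9, 34.5 and 19.9 in P14, with 31.1, 43.6, 43.5 and 42.4 in P28. Scap rose by 1.75 ± 0.32, from 76.1 and 84.3 CPM in P2 to 132, 359, 394 and 372 in P28, and lost the call under quantile scaling and under columns of equal sum. Replicate 1 of P28 was far below the other 3.

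Of the sterol enzymes, over the slope 3 of 19 rose and 2 fell, where 21.4% and 32.6% of all genes did, with a median of 0.16. The thiolase gene Acat2 fell by 2.46 on the log2 scale, from 36.2 and 40.0 CPM in P2 to 6.26 to 7.91 in P28. Tm7sf2 fell by 1.19 on the log2 scale, but under quantile scaling its slope was 0.31 and without the P28 libraries it missed the fold, at -0.76. Hsd17b7 rose by 1.38 ± 0.36, from 7.6 and 9.11 CPM in P2 and 3.67, 5.86 and 5.51 in P6 to 21.8, 18.7, 20.8 and 16.5 in P28, though with columns of equal sum its slope was -0.12 and without the P28 libraries 0.39. Pmvk and Fdps rose by 1.52 ± 0.40 and 1.02 ± 0.38 and had slopes of -0.041 and -0.57 with columns of equal sum, and without the P28 libraries Fdps was at 0.42. Stard4 fell by 1.68 on the log2 scale, from 37.5 and 46.5 CPM in P2 to 13.4 to 17.8 in P28. Several genes were lowest in the middle of the range instead. Hmgcs1 was 146 and 149.9 CPM in P2, 117 and 114 in P4, 84.6, 72.8 and 108 in P6, 87.3 to 121 in P10, 86.7 to 139.5 in P14 and 138 to 146 in P28, with a slope of 0.16 ± 0.24. P2 and P28 were close, and P6 lay below both. Among the 11 genes from squalene to cholesterol, P6 had the lowest mean of 6, which was not counted over all genes. From P6 to P28 Fdft1, Fdps, Hsd17b7, Pmvk and Scap rose (18.7% of all genes did) and Insig1, Acat2, Fasn, Elovl6, Scd2 and Fads1 fell (31%), with Scd1 too low to be tested.

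Of 20 further fatty acid genes tested over the slope, 4 rose and 5 fell, where 21.4% and 32.6% of all genes did. Elovl4, which makes the very long fatty acids of photoreceptor membranes, rose by 3.19 ± 0.24, from 260.1 and 303 CPM in P2 to 2182 to 2430.0 in P28, and Me1, malic enzyme, a source of NADPH, by 5.38 ± 0.36. Elovl5 fell by 4.65 on the log2 scale, from 41.1 to 42.5 CPM in P2 to 0.587 to 1.17 in P28. Of 12 genes of uptake, storage and turnover tested, 4 rose and 6 fell, with Npc1, the lysosomal cholesterol exporter, higher by 2.84 and Lrp1, a lipoprotein receptor, lower by 3.92 on the log2 scale. With columns of equal sum these counts became 2 and 12, and 2 and 8.

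In some of these genes P10 replicate 4 and P14 replicate 3 lay below the others of their age. Pmvk was 41.7, 55.4, 53.5 and 21 CPM in P10 and 43.4, 51.8 and 16 in P14, and Fdps 55.4, 74.9, 69.3 and 31.5, and 55.7, 73.7 and 24.6. In both genes these 2 libraries were the lowest of their age. Over the 32 genes, P14 replicate 3 was the lowest of its 3 libraries in 22 and P10 replicate 4 the lowest of its 4 in 15. This was not counted over all genes, so it is not shown to be particular to these genes. Column sums of these 2 libraries were also the lowest of their age. They were 870720 in P10, against 1122600 to 1389000, and 1022900 in P14, against 1346700 to 1435400. Without these 2 libraries 6 genes rose in the slope and 10 fell. The mitochondrial share of CPM was 3.87% and 3.95% in these libraries, against 7.92% to 19.1% in the others of P10 and P14. Rod marker sums were also lowest in them, at 24912 and 41632 CPM.

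**Figure D5:**
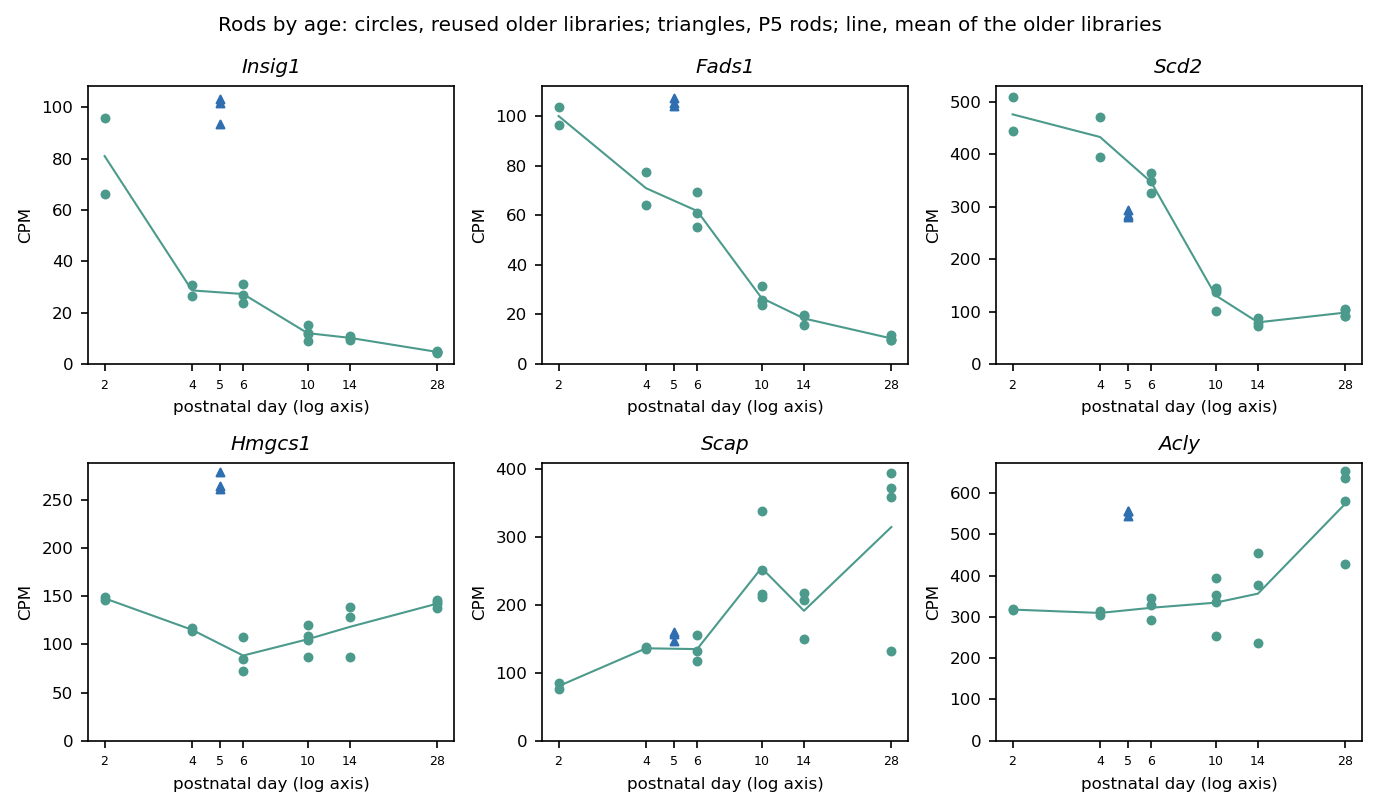
CPM (y axis, from 0) of 6 genes is plotted against postnatal day (x axis, log scale) for each rod library, as circles for the reused older libraries with a line through their means and triangles for P5. Insig1, Fads1 and Scd2 fall with age, Scap and Acly are highest at P28 apart from a low replicate 1, and the P5 triangles lie above the line for Insig1, Fads1, Hmgcs1 and Acly and below it for Scd2.

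Gene models of 11 of the 32 genes overlap a gene on the opposite strand (GENCODE M21, GRCm38), among them Cyp51 with Akap9, Fdft1 with Ctsb, Ggps1 with Arid4b and Srebf1 with Rai1. The strand setting of the libraries is not given in the sources used here, so reads of such pairs could not be told apart.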

How the data were processed

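Values of 33 RNA sequencing libraries were used, and rods of P3 were not analysed here. Per the submitters' processing notes, kallisto quantified the reads. Which release, index and build it used, and how libraries were scaled to each other, is not given in the sources used here. The unit of the deposited table is a normalized CPM signal, scaled by the authors. Counts and depth are unknown, so no count model was fitted, and 0 value columns were left unused. The members and lists were chosen with earlier results of these data known.

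Each fit took the groups compared, as log2(CPM + 1), into limma 3.58.1 (R 4.3.3) with a mean trend and Benjamini-Hochberg adjustment over all genes tested. A gene had to reach a CPM of 1 in 3 libraries of the fit, or in 2 where a group has only 2. The age slope of rods used log2 of the postnatal day in the 6 older ages and is the change from the youngest to the oldest. All 32 genes could be named, and from other lists up to 4 genes with the largest differences past the threshold, or against their list; some genes of the other lists are not reported here. The fits were tested on simulated data. Alternatives covered pseudocount, filter, fold minimum, scaling, moderation, a replicate block and leaving out each library; leaving out P10 replicate 4 with P14 replicate 3, or all of P28, was added after the data were seen.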

Additional observations from a re-analysis of the deposited data

Results flagged for a closer look

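Single libraries lay far from the others of their group in 8 of 64 tests of a gene in a group of 4 libraries, by the gap to the nearest library relative to the range of the group. Chance gives about 1 in 20. Of these, 7 were replicate 1 of P28. In it, Srebf2 was 31.1 CPM (the other 3 lay between 42.4 and 43.6), Scap 132 (359 to 394), Mvk 12.5 (26.0 to 26.2) and Ebp 22.7 (47.3 to 48.5), all below the others. Acat2 at 7.91 CPM (6.26 to 6.49), Sc5d at 54.9 (35.5 to 38.5) and Fads1 at 11.6 (9.82 to 10.1) lay above them. The remaining one was Fads2 in P10 replicate 4, at 27.2 CPM against 37.7 to 39.0.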

How the results depend on the processing

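Counts below are of the 32 genes, higher and lower, and causes were not tested unless the setting itself shows them. Without the fold minimum, more genes pass by construction: 26 and 3 for day 5 against MEF, 19 and 2 for day 8 against day 5, 17 and 7 for CiPC against day 8, 1 lower for CiPC against MEF, 23 and 5 for CiPC against P5, 12 higher for P28 against P2 and P4, 10 higher for the age slope and 5 lower for P5 against P4 and P6. A fold of 1.5 gave 21 and 1, 8 higher, 8 and 5, 11 higher, 11 higher, 10 higher and 3 lower for the same comparisons without CiPC against MEF. A pseudocount of 0.1 gave 2 higher for day 8 against day 5, and one of 5 gave 1 and 1 for CiPC against day 8. In that comparison quantile and median-of-ratios scaling left 1 lower, and columns of equal sum gave 7 and 1. Median-of-ratios scaling gave 1 lower for CiPC against P5, 6 higher for P28 and 7 higher for the slope. Columns of equal sum gave 0 and 20 for P28 and 0 and 21 for the slope. P4 and P6 in place of P5 gave 23 and 0, and P6 in place of P2 and P4 gave 5 and 6.

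Among genes that had passed, signs turned under quantile scaling for Tm7sf2 (0.33 for P28, 0.31 for the slope), and with columns of equal sum for Pmvk (-0.18 for P28, -0.041 for the slope), Hsd17b7 (-0.18 and -0.12) and Fdps in the slope (-0.57). Of the values of genes that had passed, over all alternatives, 2015 kept direction and call, 63 kept direction without the call and 7 turned. Over all 32 genes, passed or not, quantile scaling turned 7 signs for P28 and 8 for the slope, columns of equal sum 16 and 14, and each scaling at most 5 in a culture comparison. Scaling moved the median of all genes by over 0.1 in both rod age fits, all 3 CiPC fits and day 5 against MEF, by up to -1.21.

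Leaving out 1 library gave 13 to 15 higher and 0 lower for day 5 against MEF, 1 to 2 and 0 for day 8 against day 5, 2 to 4 and 1 to 2 for CiPC against day 8, 22 to 23 and 0 for CiPC against MEF, 4 to 6 and 0 to 2 for CiPC against P5, 3 to 5 and 8 to 10 for P28, 3 to 6 and 10 for the slope and 18 to 19 and 1 to 2 for P5 against P4 and P6. Without P28 replicate 1, Fdps and Ebp rose and Tm7sf2 and Fads2 lost their call. Where a group keeps 1 library, it is assumed to vary like the others.

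Correlations of the deviations of same-numbered libraries ran from -0.44 to 0.10. With so few libraries per group, deviations from a group mean depend on each other. These values therefore cannot show whether same-numbered libraries were paired. With the replicate number as a block, the counts stayed at 13 and 0, 1 and 0, 3 and 2, 23 and 0, 4 and 2, 3 and 10, and 19 and 1 in the order above, with 5 and 10 for the slope. The unknown depth limits what can be said of genes near 1 CPM, such as Scd1 in rods.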
